A study of Mus musculus with 4 samples.

Results

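Genes typical of neutrophils were followed in RNA libraries of sorted lung ILC2s. The 10 genes were chosen by symbol, as S100a8, S100a9, Csf3r, Cxcr2, Mmp8, Mmp9, Lcn2, Ngp, Camp and Ltf, and each matched 1 row of the deposited table of 22558 genes. ILC2s, the group 2 innate lymphoid cells, lack antigen receptors and release type 2 cytokines when IL-33 reaches them. Each library came from a pool of 4 mice aged 6 weeks on the C57BL/6 background that had been given 0.5 µg rmIL-33 intranasally 3 times, with lungs taken on day 4. The 2 WT libraries were from C57BL/6 mice of wildtype genotype and the 2 others from mice labelled ICAM-1 KO, which the methods describe as carriers of the Icam1 tm1Jcgr allele made in 129S4 cells and kept on B6. Both groups received rmIL-33, so no library of unchallenged cells is compared here. The sort excluded cells that bound antibodies to Gr-1, an antigen of neutrophils and some monocytes, and to CD11b, the integrin encoded by Itgam.

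Neutrophils fill their granules in order of maturation. The azurophil granules with myeloperoxidase and the serine proteases are made first, in promyelocytes, then the specific granules with lactoferrin, cathelicidin and lipocalin 2, and last the gelatinase granules with MMP9. S100A8 and S100A9 form calprotectin, an abundant protein of the neutrophil cytosol, while the G-CSF receptor drives the production of neutrophils and CXCR2 guides them to CXC chemokines in inflamed lung. Some of these genes are also used outside neutrophils, since airway epithelium makes lipocalin 2 and macrophages make MMP9.

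The libraries held 24796148 to 28782471 estimated counts on genes, with 2 libraries per group. The counts of Icam1 itself were 2579 and 2630 for WT, and 2812 and 3453 for the ICAM-1 KO label (log2 fold change 0.33, SE 0.108, edgeR adjusted p = 0.0745), and they include any reads of the overlapping antisense gene Gm47079. Icam1 RNA was thus not lower under the KO label and does not check it, and the groups are named by their labels alone, as WT and KO-labelled. Normalized counts are those of the authors, who added 1 to each count and scaled the libraries to a like upper quartile, so that 1 count is worth 0.0317 to 0.0347. Genes were tested if their normalized count averaged at least 1 and summed to at least 10 over the 4 libraries, and 8 of the 10 genes were among the 11711 tested, while Mmp8 and Camp fell under the limit. An edgeR adjusted p is the Benjamini-Hochberg value of edgeR's quasi-likelihood F test, and SE is the standard error of the log2 fold change. Each SD rests on 2 libraries, and pools do not show the spread between mice. In bulk RNA of a sort, more cells of a type and more RNA per cell cannot be told apart.

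Of the 10 genes, 7 passed an adjusted p of 0.05 with a change of at least 2-fold, all of them higher in the KO-labelled libraries, where 4.94% of all genes tested were called in that direction. These were S100a8, S100a9, Ltf, Ngp, Lcn2, Mmp9 and Csf3r. Lcn2, with WT normalized counts of 1.55 and 1.11, and Ngp, with 2.48 and 1.93, met the summed limit of 10 only through the KO-labelled libraries. The fit without a filter, given below, does not depend on that limit. None was called lower. Both KO-labelled libraries lay above both WT libraries for all 8 of the 10 genes that were tested, against 28.3% of all genes tested. The same held for Camp, which was not tested, and Mmp8, also not tested, was the exception. When all genes were fitted without a filter on low counts, the median log2 fold change of the 10 genes, with Camp at its bound, was 1.25, against 0.03 over 22158 genes. In that fit 5 of the 10 genes kept both thresholds, S100a9, Ltf, Ngp, Lcn2 and Mmp9, against 1.23% of genes called higher. Summed as counts per library of equal size (CPM), the 10 genes reached 85.7 and 78.2 in the WT libraries and 246 and 193 in the KO-labelled libraries. Lcn2 is also among the genes that the study lists for their change in these same libraries.

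**Figure D1:**
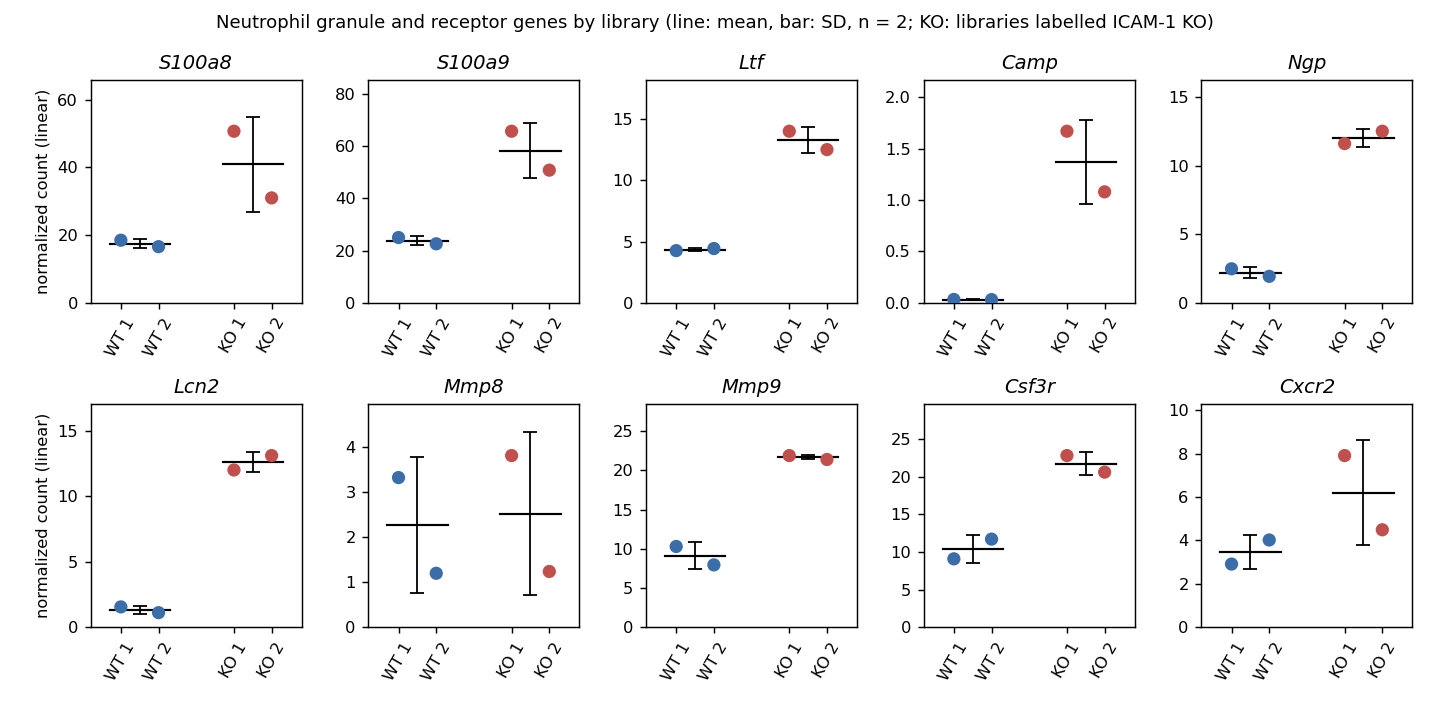
Normalized counts (linear axis from 0) of the 10 genes in each of the 4 libraries, with the mean as a line and the SD of 2 libraries as a bar, WT in blue and the libraries labelled ICAM-1 KO in red. For 9 genes both red points lie above both blue points, while for Mmp8 the points of the groups interleave.

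S100a8 and S100a9 encode the calcium-binding subunits of calprotectin and are neighbours on chromosome 3 (mm10), S100a8 at 90668978 to 90670035 on the plus strand and S100a9 at 90692632 to 90695721 on the minus strand. S100a9 had a normalized count of 25 and 22.6 in the WT libraries and of 65.7 and 50.8 in the KO-labelled libraries. The groups did not overlap, and the gene rose by a log2 fold change of 1.32 (SE 0.162, edgeR adjusted p = 0.0019). S100a8 had a normalized count of 18.5 and 16.6 in WT and of 50.7 and 31 in the KO-labelled libraries. Its first KO-labelled library stood well above the second, and the log2 fold change was 1.24 (SE 0.236, adjusted p = 0.0118). The adjusted p of S100a8 was 0.0534 without the first WT library, 0.0691 without the second and 0.0771 with rare genes kept in the fit, and without the first KO-labelled library the log2 fold change was 0.86. The S100a9 to S100a8 ratio of counts was 1.35 and 1.36 in WT and 1.3 and 1.64 in the KO-labelled libraries, so the ratio of the subunit RNAs overlapped between the groups.

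Ltf, Ngp, Camp and Lcn2 encode proteins of the specific granules. Lactoferrin, the product of Ltf, binds iron. Its gene had a normalized count of 4.26 and 4.43 in WT and of 14 and 12.5 in the KO-labelled libraries. The spread within each group was small beside the distance between them, and Ltf rose by a log2 fold change of 1.64 (SE 0.275, edgeR adjusted p = 0.00733). Ngp, the gene of neutrophilic granule protein, a relative of the cathelicidins, had a normalized count of 2.48 and 1.93 in WT and of 11.6 and 12.5 in the KO-labelled libraries. Ngp rose by a log2 fold change of 2.5 (SE 0.329, adjusted p = 0.00271), from 74 and 60 counts to 332 and 392.

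Lcn2, which encodes lipocalin 2, a protein that holds bacterial siderophores and so keeps iron from bacteria, showed the largest log2 fold change of the 8 genes tested. Its counts were 46 and 34 in WT, and 346 and 411 in the KO-labelled libraries, with normalized counts of 1.33 ± 0.314 and 12.6 ± 0.765 (SD, n = 2 libraries each). The log2 fold change was 3.3 (SE 0.365, edgeR adjusted p = 0.00132), and leaving out single libraries gave 3.07 to 3.57. Camp, the gene of the only cathelicidin of the mouse, was listed at 0 counts in both WT libraries and at 47 and 33 counts in the KO-labelled libraries. Set against a floor of 3 counts in each WT library, it was at least 13.8-fold higher. Camp was too rare for the main test, its adjusted p was 0.0981 when no filter was used and 0.0404 with edgeR's own filter, and its count in each KO-labelled library was under 50.

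Ltf, Ngp and Camp lie together on chromosome 9, from 111019271 to 111042767 on the plus strand, from 110419747 to 110423012 on the plus strand and from 109847379 to 109849617 on the minus strand. Icam1 starts at 21015985 on the same chromosome, so these 3 genes are 88.8 to 90 Mb from it. Mmp8, from 7558456 to 7568485, is the nearest of the 10 genes to Icam1, at 13.5 Mb. Lcn2 lies on chromosome 2 from 32384633 to 32388252 on the minus strand. None of the 10 genes overlaps another gene in the GENCODE M21 annotation, so their counts are not shared with an overlapping neighbour.

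Printed here are the 250 bases before the RefSeq start sites of these 4 granule genes and of S100a8. Both KO-labelled libraries lay above both WT libraries for all 5, and also for S100a9, Mmp9, Csf3r and Cxcr2, which are not printed. Capitals mark where 8 bases match the letters TTNNGNAA on either strand. This is a loose form of the site bound by C/EBP proteins, the family that includes C/EBP epsilon, a factor needed for specific granules. The windows are, in GRCm38.p6 and 5′ to 3′ along each gene, chr9:110419558-110419807 on the plus strand for Ngp, chr9:111019042-111019291 on the plus strand for Ltf, chr2:32387740-32387989 on the minus strand for Lcn2, chr9:109849457-109849706 on the minus strand for Camp and chr3:90668821-90669070 on the plus strand for S100a8.
Ngp: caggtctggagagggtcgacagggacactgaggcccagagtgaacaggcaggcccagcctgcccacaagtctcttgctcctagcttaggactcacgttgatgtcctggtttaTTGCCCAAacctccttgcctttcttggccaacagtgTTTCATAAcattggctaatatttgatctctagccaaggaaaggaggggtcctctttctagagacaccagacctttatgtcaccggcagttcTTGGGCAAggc
Ltf: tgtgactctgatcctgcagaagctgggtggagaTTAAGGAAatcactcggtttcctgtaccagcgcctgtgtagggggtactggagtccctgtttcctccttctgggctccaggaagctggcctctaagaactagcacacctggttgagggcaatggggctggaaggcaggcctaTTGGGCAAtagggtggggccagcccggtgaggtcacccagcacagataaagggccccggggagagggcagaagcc
Lcn2: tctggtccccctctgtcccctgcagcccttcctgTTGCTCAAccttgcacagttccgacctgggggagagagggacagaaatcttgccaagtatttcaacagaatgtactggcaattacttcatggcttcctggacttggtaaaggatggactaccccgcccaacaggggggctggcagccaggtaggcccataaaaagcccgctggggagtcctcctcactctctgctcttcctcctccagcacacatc
Camp: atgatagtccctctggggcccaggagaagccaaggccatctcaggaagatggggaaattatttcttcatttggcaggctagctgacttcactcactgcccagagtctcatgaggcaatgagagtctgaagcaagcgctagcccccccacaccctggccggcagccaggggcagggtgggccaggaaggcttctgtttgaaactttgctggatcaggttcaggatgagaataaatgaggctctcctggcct
S100a8: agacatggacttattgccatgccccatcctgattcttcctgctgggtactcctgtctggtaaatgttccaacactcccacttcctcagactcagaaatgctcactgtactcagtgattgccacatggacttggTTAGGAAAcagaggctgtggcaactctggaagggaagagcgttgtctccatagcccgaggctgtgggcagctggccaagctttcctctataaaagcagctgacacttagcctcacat

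Windows were held for 9 of the 10 genes, all but Mmp9, and 6 of these 9 contained TTNNGNAA on either strand (S100a8, S100a9, Mmp8, Lcn2, Ngp and Ltf), against 36.9% of 27025 windows of the same length. Ngp and Ltf carried the same match, TTGGGCAA, on the strand of the gene, which began 11 bases before the start of Ngp and 75 bases before that of Ltf. Mmp8, whose groups overlapped, had 2 matches, while Csf3r, which rose, had none. The letters GAGGAA, as in sites of PU.1, a factor of myeloid cells, were found on either strand in 6 of the 9 windows and in 23.1% of all. The letters TATAAA stood in the window of S100a8 alone among the 9, beginning 30 bases before its start, and in 13% of all windows. A match is a run of letters and not a measured binding site.

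Mmp9 and Mmp8 encode gelatinase B and neutrophil collagenase, matrix proteases released from granules. Mmp9, on chromosome 2 from 164940780 to 164955850, had a normalized count of 10.3 and 7.95 in WT and of 21.9 and 21.4 in the KO-labelled libraries. It rose by a log2 fold change of 1.28 (SE 0.223, edgeR adjusted p = 0.00869). The counts of Mmp8 were 100 and 37 in WT, and 109 and 38 in the KO-labelled libraries. In both groups the first library was higher than the second, the groups overlapped, and without a filter the log2 fold change was 0.12 (SE 0.704, adjusted p = 0.941). The spread between libraries of one group was wide, and a difference between Mmp8 and Mmp9 was not tested.

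The receptors Csf3r and Cxcr2 were higher in both KO-labelled libraries, but only Csf3r passed the test. Csf3r, which encodes the G-CSF receptor and lies on chromosome 4 from 126024550 to 126044440, had a normalized count of 9.08 and 11.7 in WT and of 22.8 and 20.6 in the KO-labelled libraries. The log2 fold change was 1.09 (SE 0.219, edgeR adjusted p = 0.0145), close to the 2-fold limit. Without the first WT library it was 0.92 with an adjusted p of 0.0709, and with rare genes kept in the fit its adjusted p was 0.0544. Cxcr2, on chromosome 1 from 74153989 to 74161246, had a normalized count of 2.91 and 4.02 in WT and of 7.91 and 4.49 in the KO-labelled libraries. The second KO-labelled library was close to the second WT library, and the log2 fold change of 0.86 had a standard error of 0.402 and an adjusted p of 0.191. Cxcr1, the related receptor, was counted 9 and 8 times in WT and 0 times in both KO-labelled libraries.

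**Figure D2:**
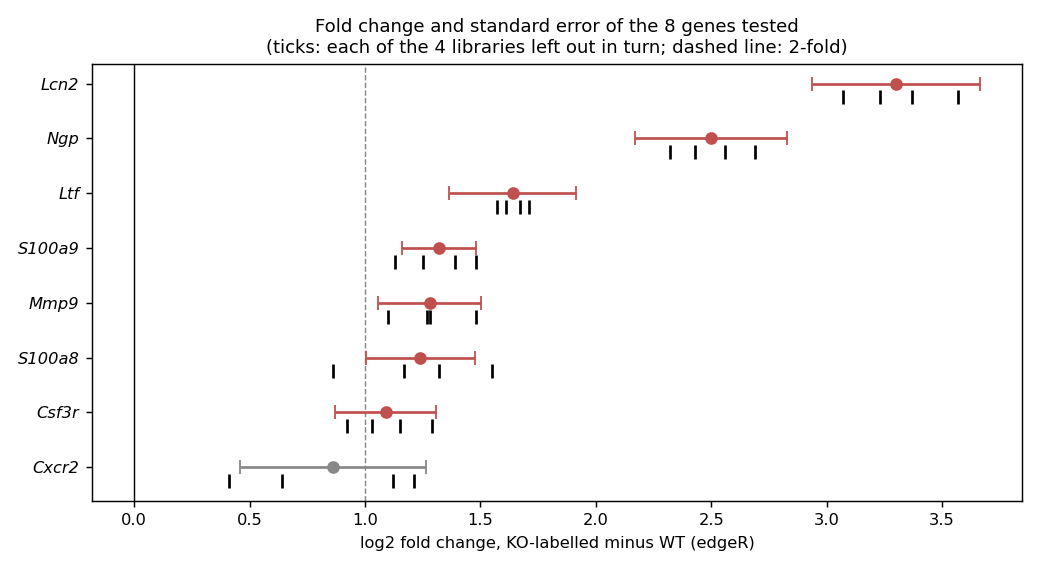
Log2 fold change of KO-labelled over WT libraries from edgeR (x axis) of the 8 genes tested, with bars for 1 standard error, red for an adjusted p under 0.05 and grey otherwise. The ticks under each point are the 4 values with 1 library left out, and they stay above the 2-fold line (log2 of 1) for Lcn2, Ngp, Ltf, S100a9 and Mmp9, but reach 0.86 for S100a8, 0.92 for Csf3r and 0.41 for Cxcr2.

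Levels were compared between genes as normalized counts per kb of exon. In WT, S100a9 at 45.6 ± 3.23 and S100a8 at 25.3 ± 1.93 (SD, n = 2 libraries) stood far above Csf3r at 2.88, Mmp9 at 2.58, Ngp at 1.8, Ltf at 1.26, Cxcr2 at 1.14, Mmp8 at 0.936 and Lcn2 at 0.507. The ranges of Csf3r and Mmp9 overlapped, as did those of neighbours from Ltf to Lcn2 in this order. In the KO-labelled libraries S100a9 at 112 ± 20.2 and S100a8 at 58.9 ± 20.2 again led, followed by Ngp at 9.85, Mmp9 at 6.12, Csf3r at 6.02, Lcn2 at 4.8, Ltf at 3.84, Cxcr2 at 2.04, Camp at 1.81 and Mmp8 at 1.04. Here the ranges of Mmp9 and Csf3r overlapped, and so did those of neighbours from Cxcr2 to Mmp8. Ngp thus stood below Csf3r and Mmp9 in WT and above both in the KO-labelled libraries. Lcn2 stood below Ltf and Cxcr2 in WT and above both in the KO-labelled libraries. By its mean Lcn2 was also below Mmp8 in WT, but their WT ranges overlapped, and it was above Mmp8 in the KO-labelled libraries. On the same scale the ILC2 gene Il1rl1, the IL-33 receptor, stood at 98.2 in WT and at 111 in the KO-labelled libraries. The 12 ILC2 genes ran from 7.56 for Thy1 to 576 for Areg in the KO-labelled libraries, and S100a9 lay within that range. Without division by length, the mean normalized count there was 767 for Il1rl1 and 58.3 for S100a9.

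The defining neutrophil genes outside the 10 did not follow one pattern. Ly6g, whose product is bound by the Gr-1 antibody, was counted 0 and 13 times in WT, and 14 and 1 times in the KO-labelled libraries, near 0 in all. Retnlg, a secreted resistin-like protein of mature neutrophils, had a normalized count of 11.5 and 19.1 in WT and of 17.3 and 13.3 in the KO-labelled libraries, and its groups overlapped (log2 fold change 0.02, edgeR adjusted p = 0.969). Itgam, which encodes the CD11b that the sort excluded, rose from 8.24 ± 0.489 to 24 ± 1.92 (SD, n = 2 libraries), a log2 fold change of 1.57 (adjusted p = 0.0029). Cebpe, the gene of C/EBP epsilon, had 8 and 17 counts in WT and 3 and 0 in the KO-labelled libraries.

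Mpo, Elane, Prtn3 and Ctsg, genes of the azurophil granule, were highest in the first WT library. So was Ms4a3, kept in the same list though its product is not a granule protein, whereas Ctsc and Srgn of that list were not. Mpo, the myeloperoxidase gene, had 2433 and 690 counts in WT and 225 and 761 in the KO-labelled libraries. Elane, the neutrophil elastase gene, had 434 and 139 counts in WT and 19 and 169 in the KO-labelled libraries. The groups overlapped for both genes, and neither passed the test, with a log2 fold change of -1.62 for Mpo (SE 0.592, edgeR adjusted p = 0.101) and of -1.55 for Elane (SE 0.721, adjusted p = 0.186). Prtn3 and Ctsg, which encode proteinase 3 and cathepsin G, gave -0.91 and -0.37 with adjusted p of 0.374 and 0.693, and without the first WT library both were positive, at 0.18 and 0.85. The size of the change in Mpo and Elane depended on single libraries. Without the first WT library Mpo was at -0.4 and Elane at -0.48. Without the second KO-labelled library they were at -2.69 and -3.79, and without the second WT library at -2.28 and -2.18. Summed over Mpo, Elane, Prtn3, Ctsg and Ms4a3, the counts were 3421 and 984 in WT and 404 and 1183 in the KO-labelled libraries.

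Ratios of counts within a library put the azurophil genes beside Ltf and Ngp, which had not overlapped between the groups themselves. The ratio of Mpo to Ltf counts was 19 and 4.96 in WT and 0.56 and 1.94 in the KO-labelled libraries, and that of Elane to Ngp counts was 5.86 and 2.32 in WT and 0.0572 and 0.431 in the KO-labelled libraries. Both ratios were lower in both KO-labelled libraries than in either WT library, and the ratio of Ngp to Ltf, both of the specific granule, was higher there, at 0.826 and 1 against 0.578 and 0.432. No test of these differences was run, since the ratios were chosen after the counts were seen.

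**Figure D3:**
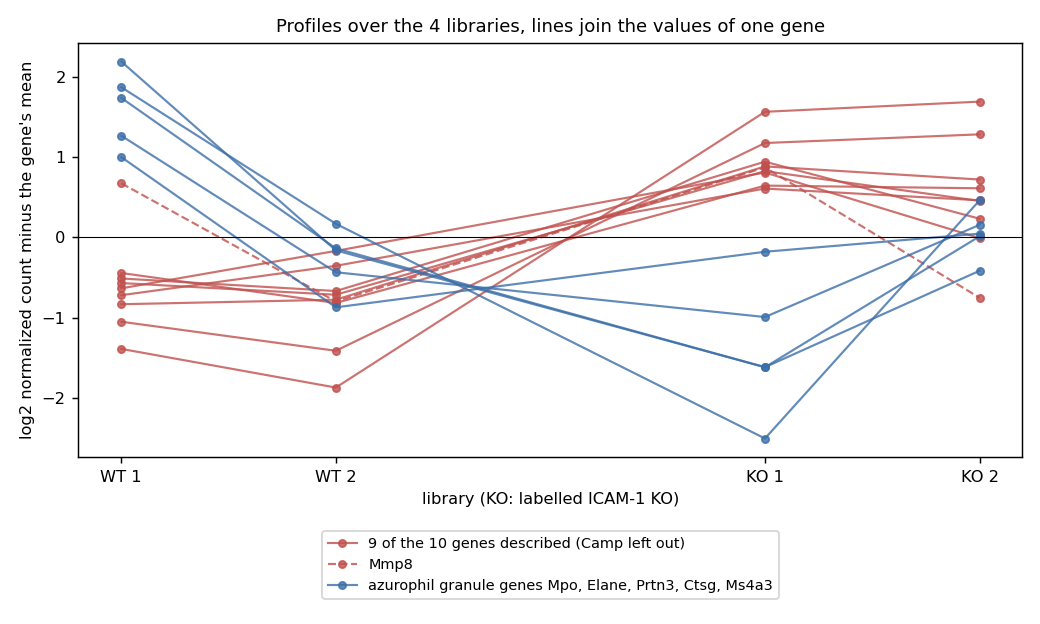
Log2 normalized count of each gene minus its mean over the 4 libraries (y axis), with 1 line per gene. Red marks 9 of the 10 genes described (Camp, at 0 counts in WT, is left out). Blue marks 5 genes of the azurophil granule list, of which Ms4a3 does not encode a granule protein. The red lines rise from the WT to the KO-labelled libraries except that of Mmp8 (dashed), while the blue lines are highest in the first WT library, where their summed counts were 3421.

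Beyond the 10, lists of 91 genes related to neutrophils held 60 genes tested, of which 26 were higher and 5 lower in the KO-labelled libraries, against 8.8% higher and 4.97% lower over all genes tested. Their median log2 fold change was 0.72, against 0.01 over all genes tested. With a change of at least 2-fold, 18 were higher and 0 lower, but without the first or the second WT library 10 and 9 were higher, and with rare genes kept in the fit 11. The 91 genes include ligands of Csf3r and Cxcr2, receptors of calprotectin and lipocalin 2, and inhibitors and activators of the matrix proteases. In that order, these lists held 3, 2 and 3 of the higher genes and 2, 0 and 0 of the lower genes. The counts and the median are thus not those of neutrophil genes alone. Many of the 91 genes are shared with macrophages and other myeloid cells, and some with ILC2s.

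Of 11 other genes of the specific and gelatinase granules tested, 5 rose and 1 fell. Cybb, the catalytic subunit of the NADPH oxidase, rose from a normalized count of 16.8 ± 3.41 to 41.3 ± 1.07 (log2 fold change 1.32, edgeR adjusted p = 0.0029). Chil3, the chitinase-like protein Ym1 of neutrophils and macrophages, rose by 1.99 (adjusted p = 0.00324). Of the 6 genes tested for the azurophil granule, Ctsc alone passed, the gene of the protease that activates the granule proteases in many leukocytes, with a log2 fold change of 0.53 (adjusted p = 0.0195, and 0.107 without the first WT library, 0.0635 without the second KO-labelled one). Of 6 genes of the NADPH oxidase and of neutrophil extracellular traps, Cybb alone passed.

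Among 12 other surface and receptor genes tested, 8 rose and 1 fell. Csf2rb, the common beta chain of the receptors for IL-3, IL-5 and GM-CSF, rose by 0.75 (edgeR adjusted p = 0.00662). Among 8 other genes of mature neutrophils tested, 4 rose and none fell, with Il1b at 0.87 (adjusted p = 0.00149), Acod1, the itaconate-producing enzyme, at 1.36 (adjusted p = 0.00151) and Hdc, the histamine-producing enzyme, at 0.67 (adjusted p = 0.00705, and 0.0534 with rare genes kept in the fit). Of 5 factors of granulopoiesis tested, Cebpd rose by 1.08 (adjusted p = 0.0437) and Klf5 had a log2 fold change of -0.85 (adjusted p = 0.0327). Both calls were lost under some alternatives, with an adjusted p of up to 0.172 for Cebpd without the second WT library and of 0.161 for Klf5 without the first.

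In the list of ligands of the 2 receptors, 3 of 6 genes tested were higher and 2 lower, and one of the 3 is Pf4, whose product is not an established ligand of either. Csf3, the gene of G-CSF itself, was nearly absent, with 0 and 7 counts in WT and 3 in each KO-labelled library. Of the CXCR2 ligands, Cxcl2 fell by 0.67 on the log2 scale (edgeR adjusted p = 0.00274) and Cxcl3 fell by 0.81 (adjusted p = 0.0238, and 0.0728 without the second WT library), whereas Cxcl1 had a log2 fold change of -0.45 and did not pass (adjusted p = 0.157). Cxcl15, the lung chemokine of airway epithelium, rose by 4.49 (adjusted p = 0.00131). Ppbp and Pf4, chemokine genes of platelets of which only Ppbp gives a known CXCR2 ligand, had log2 fold changes of 1.67 and 1.87, but their adjusted p of 0.0495 and 0.0408 rose to as much as 0.187 and 0.207 with 1 library left out. Cxcl5 was too rare to be tested, at 39 and 68 counts in WT and 93 and 69 in the KO-labelled libraries.

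Of 4 genes tested for receptors of calprotectin and lipocalin 2, 2 were higher. Cd36, a scavenger receptor of macrophages and endothelium, rose from 48.1 ± 1.6 to 144 ± 6.25 (log2 fold change 1.61, edgeR adjusted p = 0.000131). Cd33 passed narrowly at 1.31 (adjusted p = 0.0484), and this call was lost under 10 of 13 alternatives, with an adjusted p of up to 0.222 without the first KO-labelled library. Of 5 genes for inhibitors and activators of the matrix proteases, Timp3, Mmp14 and Timp2 were higher. Timp3, an inhibitor held in the matrix, rose by 2.61 (adjusted p = 0.00232). The adjusted p of Mmp14 and Timp2 were 0.0321 and 0.0353, and reached 0.148 and 0.198 without the second KO-labelled library.

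**Figure D4:**
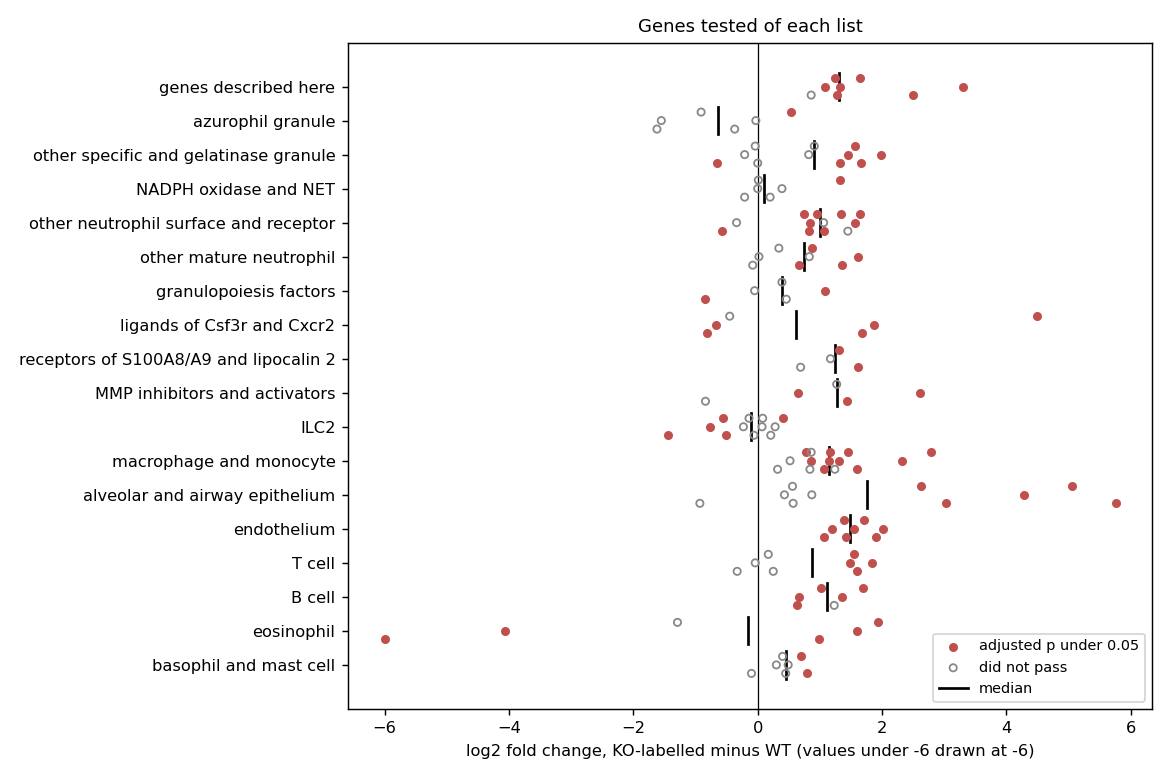
Log2 fold change of KO-labelled over WT libraries (x axis) of the genes tested in each list, filled red for an adjusted p under 0.05 and open otherwise, with the median of each list as a black line. Values under -6 are drawn at -6, and the azurophil granule list has a median of -0.64, against 1.48 for endothelium and 1.14 for macrophages and monocytes.

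Markers of other cell types moved in the same libraries, where 8.8% of all genes tested were higher and 4.97% lower. Of 15 macrophage and monocyte genes tested, 10 were higher and 0 lower, with Cd14 at a log2 fold change of 1.17 (edgeR adjusted p = 0.0014), and their summed normalized count was 570 and 573 in WT and 978 and 1200 in the KO-labelled libraries. Of 8 endothelial genes all 8 were higher, with summed normalized counts of 129 and 131 against 315 and 338. Of 10 genes of alveolar and airway epithelium, 5 were higher and 0 lower, with sums of 432 and 194 against 568 and 1380, and Bpifa1, a secretory gene of the airway, had 21 and 0 counts in WT and 729 and 362 in the KO-labelled libraries. T cell and B cell markers were higher for 4 of 8 and 5 of 6 genes. Eosinophil markers went both ways, with 3 higher and 2 lower of 6. The granule gene Epx, for eosinophil peroxidase, had 1027 and 739 counts in WT and 0 in both KO-labelled libraries, which, with 3 counts per library as the floor, is at least 287-fold lower, and Prg2, for major basic protein, had a log2 fold change of -4.06 (edgeR adjusted p = 0.000711). Of 7 basophil and mast cell genes 2 were higher and 0 lower. Of 12 ILC2 genes 1 was higher and 4 lower, with sums of 6600 and 7230 against 5630 and 5980. Among the genes counted as higher, Marco, Fabp4, Sftpb, Bpifa1, Emcn and Il5ra met the summed limit of 10 only through the KO-labelled libraries. The part of these cell types in the level of the 10 genes was not tested.

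Genes of the antigens used in the gate were counted too, both those the sort selected for and those it excluded. The list also held Thy1, which the gate given for these libraries does not name. Of 12 tested, 6 were higher and 0 lower, against 8.8% higher and 4.97% lower over all genes tested. Ptprc was one of them (log2 fold change 0.39, edgeR adjusted p = 0.0138). It encodes the CD45 that the sort selected for and also CD45R, which the sort excluded. The others were Itgam, Itgax, Cd4, Cd5 and Ly6c1. Ly6c1, the gene of an antigen that Gr-1 antibodies also bind, had a log2 fold change of 1.48 (edgeR adjusted p = 0.00131).

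The mean profile of the 8 genes tested over the 4 libraries was most like those of Prex2, Thbs1, Notch4, Galnt18 and Slco2a1, at distances of 0.0799 to 0.153 between log2 normalized counts centred on each gene's mean. Prex2 had normalized counts of 1.91 and 1.9 in WT and 6.39 and 5.1 in the KO-labelled libraries. With 4 libraries this is a description of likeness over 2 groups and their spread.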

How the data were processed

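RNA of sorted lung ILC2s was compared between 2 WT and 2 ICAM-1 KO libraries, each from a pool of 4 mice. The authors made cDNA from 10 ng of RNA with a SMARTer low-input kit, used STAR to align reads to the mm10 genome, and estimated counts over GENCODE M20 genes in Partek. The labels and the paper give different STAR versions. Whether strand was used is not given in the sources used here. The authors deposited these estimated counts for 22558 genes, and a normalized signal for 18324 genes made by the upper quartile method.

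The estimated counts were rounded and tested with edgeR 4.0.16 (R 4.3.3; estimateDisp, glmQLFit with legacy = FALSE, glmQLFTest) with upper quartile factors over all 11711 genes that met the study's limits on normalized counts. Adjusted p follow Benjamini and Hochberg over the genes tested, and standard errors come from the log2 fold change and its F statistic. A gene called higher or lower passed 0.05, with a change of 2-fold where stated. Each library is a pool by the study's methods, and where the pools share a litter or day of sorting is not given, so p-values measure only the spread between these libraries. The depth limits rare genes, and a floor of 3 counts covers counting error only.

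The 10 genes, the lists and the alternatives were chosen with earlier results of these data known. Named in the text are the 10 genes, Icam1, the 3 genes of each list with the smallest adjusted p or the highest mean, the receptor ligands, 6 defining neutrophil genes and the 5 genes with the nearest profile, and not every gene the rule allows is printed. Ctsg, Prtn3, Ms4a3, Cxcr1, Itgax, Thy1, Marco, Fabp4, Sftpb, Emcn and the ratios were added after their values were seen. Alternatives were TMM factors, DESeq2 1.42.0, limma 3.58.1 with a pseudocount of 1 or 0.1 on the normalized counts, other filters, the older form of the edgeR test, a replicate block, no fold limit and each library left out. Lengths per kb are unions of exons in GENCODE M21, and promoter sequences are RefSeq's for GRCm38.p6. Sequences of proteins were not used here.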

Additional observations from a re-analysis of the deposited data

How the results depend on the processing

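Of the 10 genes, 8 were called higher with edgeR's own filter and 5 with no filter on counts, and 0 were called lower in either. The gene added by edgeR's filter was Camp, which met it only through the KO-labelled libraries, since it had 0 counts in WT. With that filter 557 of all genes tested were called higher. With a library left out, the log2 fold change fell to 0.86 for S100a8 and 0.92 for Csf3r, under the 2-fold limit. Lcn2, Ngp, Ltf, S100a9 and Mmp9 passed an adjusted p of 0.05 under all 13 alternatives run for them, with adjusted p of at most 0.0172, 0.024, 0.0399, 0.0304 and 0.0474. Cxcr2 passed under none of 13, with adjusted p from 0.101 to 0.694. Over all genes tested, 578 were called higher and 63 lower, against 273 and 39 with no filter on counts, 1030 and 582 with no fold limit, and 338 (without the first WT library) to 596 and 48 to 80 with a library left out. Of the related neutrophil genes 18 were called higher and 0 lower, against 11 higher without a filter, 5 lower with no fold limit, and 9 to 18 higher and 0 to 3 lower with a library left out. With 1 library left out, the lone library is assumed to vary like the other group. The sign turned for Prtn3 and Ctsg without the first WT library (0.18 and 0.85, lowest -1.64 and -1.04 with other libraries left out), and for Retnlg without a filter (-0.02), with edgeR's own filter (-0.01), without the first WT library (-0.3) and without the first KO-labelled library (-0.16), with a highest value of 0.44. The cause was not tested.

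Replicate numbers are shared between the groups but pair no animals, and the deviations of same-numbered libraries correlated at -0.0582. With the replicate number as a block, 601 genes were called higher and 67 lower, and 7 of the 10 genes were called higher. Camp and Ly6g, at 0 counts in some libraries, are limited by depth.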
